A study of Mus musculus with 20 samples.

Results

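The respiratory chain of the mouse liver is described here across orchiectomy and intermittent hypoxia, with its mitochondria-encoded genes set beside its nuclear-encoded ones. Members were the protein-coding genes whose symbols start with mt-Nd, mt-Co, mt-Cytb, mt-Atp, Nduf, Uqcr, Atp5 or Cox4 to Cox8, or are Sdha, Sdhb, Sdhc or Sdhd, with a mean estimated count of 10 or more over the libraries. The symbol rule matched 128 genes of any type and 110 protein-coding ones, and 104 of the 36106 genes in the table met the whole rule. They comprise 13 mitochondria-encoded and 91 nuclear-encoded genes, and 103 of them had enough counts to be tested. Cox8b was the member that did not.

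Livers came from male mice in 4 groups, and every mouse had either surgery and was kept for 2 weeks in either atmosphere. ORX_IH mice were orchiectomized, an operation that takes out the testes and so most of the circulating testosterone, and breathed air with cyclic falls in oxygen, called intermittent hypoxia and used as a model of sleep apnoea (n = 5). ORX_Nx mice were orchiectomized and kept in normoxia (n = 5), Sham_IH mice had sham surgery and intermittent hypoxia (n = 5), and Sham_Nx mice had sham surgery and normoxia (n = 4). Strain and age are not given in the sources used here, and a further Sham_Nx mouse, mouse 1, was not analysed here. Each library is named by its group and mouse number. Total estimated counts were 29.3 to 69.6 M per library (M, 1000000), and counting error is small for most members. It is not small for Cox6a2, Cox6b2, Cox7a1, Cox8b, Ndufa4l2, Ndufaf5 and Atp5g2, the 7 members with under 100 estimated counts in some library.

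The chain sits in the inner mitochondrial membrane. Complexes I and II feed electrons from NADH and succinate to ubiquinone, complex III passes them to cytochrome c, and complex IV hands them to oxygen. Complexes I, III and IV pump protons as they do so, and complex V, the ATP synthase, lets the protons back and makes ATP. Complexes I, III, IV and V are built from proteins of both genomes, and complex II from nuclear ones alone. The mitochondrial genes are read as long transcripts from both strands of a small circular genome and are then cut into single RNAs, mostly at the tRNAs between them. The nuclear genes each have their own promoter.

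Hepatocyte markers were high in all libraries, and Alb, which encodes serum albumin, lay between 47889 and 90629 counts per 1000000 (CPM, scaled by trimmed mean of M-values, TMM). Other tissues showed in some libraries. The summed level of 15 skeletal muscle markers was 1074 CPM in ORX_IH mouse 1, 636 CPM in ORX_IH mouse 2, 181 CPM in Sham_Nx mouse 2 and 44.9 CPM in Sham_Nx mouse 3, against 2.02 to 10.8 CPM in the other libraries. The summed level of 15 pancreatic acinar markers was 261 CPM in ORX_IH mouse 1, 1470 CPM in Sham_IH mouse 5 and 616 CPM in Sham_Nx mouse 5, against 4.23 to 27.4 CPM elsewhere. The summed level of 11 Kupffer cell markers was 1120.4 and 732 CPM in ORX_Nx mice 4 and 5, against 176 to 477 CPM elsewhere, and their summed acute phase genes were 13704 and 9146 CPM. In bulk RNA, fewer cells of a type and less RNA per cell cannot be told apart.

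The 13 mitochondria-encoded genes were the 13 highest members once levels were divided by transcript length. The mean over all libraries was 16687 CPM per kilobase for mt-Atp6, a subunit of the ATP synthase, and 15331 CPM per kilobase for mt-Co1, the catalytic subunit of complex IV. Cytochrome b of complex III, mt-Cytb, averaged 10678 CPM per kilobase. Among the complex I genes the mean level was 8175 CPM per kilobase for mt-Nd2, 7022 for mt-Nd1, 5605 for mt-Nd6, 3909.7 for mt-Nd5 and 2189 for mt-Nd3, the lowest of the 13. The highest nuclear member, Atp5b, the catalytic subunit of complex V, averaged 744 CPM per kilobase and came directly after mt-Nd3 in the order. The next were Cox4i1, a complex IV subunit, at 504 and Uqcrq, a complex III subunit, at 501 CPM per kilobase. The highest member of complex I, Ndufb9, ranked 35 and the highest of complex II, Sdhd, ranked 50. Libraries were poly(A)-selected, so levels of mitochondrial transcripts also follow their tails. Levels of mt-Nd3 and mt-Co1 are uncertain, since pseudogenes with near-identical sequence held 45.2% and 5.21% of the estimated counts of gene and copies together. The same holds for Ndufb4 at 66.8%, Cox7c at 8.90% and Atp5l at 5.67%.

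The mitochondria-encoded members made up 8.43 ± 0.748% of all estimated counts in ORX_IH livers (SD, n = 5) and 8.30 ± 0.745% in ORX_Nx livers (SD, n = 5). They made up 8.86 ± 0.774% in Sham_IH livers (SD, n = 5) and 8.78 ± 0.559% in Sham_Nx livers (SD, n = 4). All groups overlapped in this share. The nuclear-encoded members made up 1.01 ± 0.0477% in ORX_IH, 0.963 ± 0.0427% in ORX_Nx, 0.923 ± 0.0199% in Sham_IH and 0.901 ± 0.0248% in Sham_Nx livers. The ORX_IH libraries held 0.973 to 1.08%, above every Sham_IH library (0.902 to 0.947%) and every Sham_Nx library (0.876 to 0.930%), and overlapped the ORX_Nx libraries (0.918 to 1.02%). These shares are of raw totals, on which the median of all genes was also higher, at a log2 fold change of 0.13 in ORX_IH against Sham_Nx beside 0.16 for the nuclear-encoded members. No test was made of the shares.

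**Figure D1:**
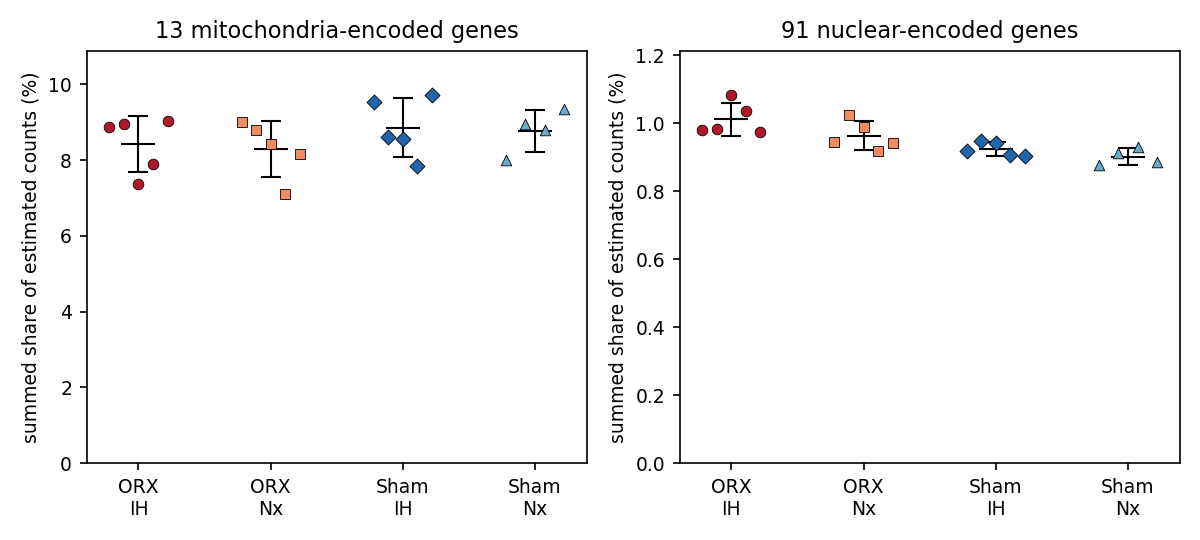
Share of all estimated counts (percent, y axis) held by the 13 mitochondria-encoded and the 91 nuclear-encoded members, by group (x axis), with 1 point per library and the group mean ± SD. The mitochondrial shares overlap among all groups, while the nuclear share is 0.973 to 1.08% in ORX_IH libraries and 0.876 to 0.947% in the sham libraries.

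The results turn on 4 complex I genes of the mitochondrial genome, and their first 60 bases are shown to mark where each lies and how it starts. The sequences are from the GRCm38 transcripts of GENCODE M21, written 5′ to 3′ on the coding strand with the first codon in capitals.
mt-Nd1: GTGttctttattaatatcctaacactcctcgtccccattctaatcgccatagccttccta
mt-Nd2: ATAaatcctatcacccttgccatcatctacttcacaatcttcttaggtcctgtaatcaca
mt-Nd5: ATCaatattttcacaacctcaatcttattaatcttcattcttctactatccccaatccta
mt-Nd6: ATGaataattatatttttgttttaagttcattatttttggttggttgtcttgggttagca
These stretches lie at chrMT:2751-2810, chrMT:3914-3973 and chrMT:11742-11801 on the plus strand for mt-Nd1, mt-Nd2 and mt-Nd5, and at chrMT:14011-14070 on the minus strand for mt-Nd6. The first codons differ among the 4, and all are read as starts in vertebrate mitochondria. Only 206 bases separate the end of mt-Nd1 from the start of mt-Nd2, in the same direction. The neighbours mt-Nd5 and mt-Nd6 lie on opposite strands and share 14 bases at their ends. Of the 13 genes, mt-Nd6 alone is on the opposite strand, and 28.1% of its bases are G, against 8.00% in mt-Nd2 and 11.6% in mt-Nd1. The kit marks strand, but no source used here says whether the counting used it, so reads of mt-Nd6 and of its antisense strand may not have been told apart.

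Other mitochondrial genes overlap in the same direction, so their counts are not fully separate. The junctions are shown with the shared bases in capitals.
mt-Atp8 and mt-Atp6: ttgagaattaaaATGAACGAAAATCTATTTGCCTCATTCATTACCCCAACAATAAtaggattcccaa
mt-Nd4l and mt-Nd4: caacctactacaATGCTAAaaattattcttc
The first spans chrMT:7915-7981 and holds 43 shared bases, and the second spans chrMT:10155-10185 and holds 7, both on the plus strand of GRCm38. The coding sequence of 3 genes, mt-Co3, mt-Nd4 and mt-Cytb, stops short of a whole stop codon, which the poly(A) tail completes.

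After orchiectomy in normoxia 3 mitochondria-encoded complex I genes and 2 nuclear-encoded members fell and no member rose with TMM scaling, whereas 13 rose without scaling factors. The 3 were mt-Nd2, mt-Nd5 and mt-Nd6, which encode membrane subunits of the proton-pumping arm. The nuclear ones were Ndufaf4, a complex I assembly factor, and Cox6a1, a regulatory subunit of complex IV. In ORX_Nx against Sham_Nx, 5 of 103 members fell, while 14.3% of all genes tested were called in either direction and 6.46% lower, so the share of members called was not above the background. Without scaling factors the 13 members that rose stood beside 3 that fell, mt-Nd2, mt-Nd5 and mt-Nd6, with 14.6% of all genes called higher and 2.31% called lower. All calls are edgeR quasi-likelihood tests with Benjamini-Hochberg (BH) adjustment over all genes, at an adjusted p under 0.05. With 1 library per mouse, p-values set a difference between groups against the spread between these mice.

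The level of mt-Nd2 was 6451, 6525, 6182, 6020.3 and 5017 CPM in the ORX_Nx libraries, against 7545, 8270.0, 8863 and 8976 CPM in the Sham_Nx libraries. No ORX_Nx library reached the lowest Sham_Nx library. It fell by 0.48 ± 0.11 on the log2 scale (SE; edgeR BH-adjusted p = 0.00859).

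The level of mt-Nd5 was 5616, 5958, 5291, 5049 and 4899.8 CPM in the ORX_Nx libraries, against 6509.7, 7128, 7596 and 7526 CPM in the Sham_Nx libraries. It fell by 0.42 ± 0.12 (log2 ± SE; edgeR BH-adjusted p = 0.0229), and the groups did not overlap. Its neighbour mt-Nd6, on the other strand, had 1608, 1854, 1506, 1531 and 1400.0 CPM in the ORX_Nx libraries, against 1925, 2112, 2257 and 2152 CPM in the Sham_Nx libraries. These groups did not overlap either, and mt-Nd6 fell by 0.42 ± 0.11 (log2 ± SE; edgeR BH-adjusted p = 0.0188). The ratio of mt-Nd5 to mt-Nd6 counts stayed between 3.21 and 3.62 over all 19 libraries. Since reads of mt-Nd6 and of its antisense strand may not have been told apart, its fall is not taken as separate evidence.

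Ndufaf4, which helps to assemble complex I, had 32.8, 32.5, 26.4, 29.4 and 35.2 CPM in the ORX_Nx libraries, against 37.5, 37.0, 43.3 and 35.4 CPM in the Sham_Nx libraries. The groups came close, at 35.2 and 35.4 CPM, but did not overlap. It fell by 0.29 ± 0.08 (log2 ± SE; edgeR BH-adjusted p = 0.0260), a call that ended without scaling factors, at -0.16 (adjusted p = 0.259). Cox6a1 had 125.1, 155.4, 138.4, 138.6 and 110.4 CPM in the ORX_Nx libraries, against 153.001, 149.01, 169.5 and 162.4 CPM in the Sham_Nx libraries. Here ORX_Nx mouse 2 lay inside the Sham_Nx range, and the gene fell by 0.25 ± 0.08 (log2 ± SE; edgeR BH-adjusted p = 0.0457), which also ended without scaling factors, at -0.13 (adjusted p = 0.158). Over all genes tested, 6.65% were lower in every ORX_Nx library than in any Sham_Nx library, beside 4 members, which were mt-Nd2, mt-Nd5, mt-Nd6 and Ndufaf4.

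The other 10 mitochondria-encoded genes did not pass the test. Their log2 fold changes in ORX_Nx against Sham_Nx were -0.25 for mt-Nd4l, -0.24 for mt-Nd4, -0.20 for mt-Nd3, -0.20 for mt-Cytb, -0.19 for mt-Co2, -0.17 for mt-Atp6, -0.14 for mt-Atp8, -0.13 for mt-Co3, -0.10 for mt-Co1 and -0.05 for mt-Nd1. All 13 values were below 0, with a median of -0.20 against 0.01 for all genes and -0.02 for the 90 nuclear-encoded members tested. Without scaling factors 11 of the 13 remained below 0, and on that scale the median of all genes was 0.14 while that of the 13 was -0.07. By complex, the mitochondria-encoded medians were -0.25 for complex I, -0.20 for mt-Cytb, -0.13 for complex IV and -0.15 for complex V. The nuclear-encoded medians were -0.02 for complex I, 0.01 for complex II, -0.01 for complex III, -0.06 for complex IV and 0.00 for complex V. Here and below, the 45 nuclear-encoded genes of complex I include 8 assembly factors, the Ndufaf genes, whereas the other complexes include none.

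In the same comparison 11 of 11 Kupffer cell markers and 8 of 9 acute phase genes rose, where 7.88% of all genes were called higher. None of the Kupffer cell markers was at 0. The summed Kupffer cell markers lay between 266 and 1120.4 CPM in ORX_Nx and between 197 and 322 CPM in Sham_Nx livers. Without ORX_Nx mice 4 and 5, the libraries highest in them, the median of the 13 mitochondria-encoded genes was -0.07 in place of -0.20, with 11 of 13 below 0, and 63 of 90 nuclear-encoded members were above 0 in place of 35. In the same subset mt-Nd2 had a log2 fold change of -0.40 (edgeR BH-adjusted p = 0.0310) and Ndufaf4 one of -0.33 (edgeR BH-adjusted p = 0.0363). The calls of mt-Nd5 (-0.36, edgeR BH-adjusted p = 0.0976), mt-Nd6 (-0.35, adjusted p = 0.0895) and Cox6a1 (-0.18, adjusted p = 0.143) ended there. Besides muscle, the other marker lists called in this comparison were neutrophil, stellate, lymphocyte, cholangiocyte, erythroid and hepatocyte. Of the neutrophil markers 2 of 5 rose, with sums of 3.03 to 40.6 CPM in ORX_Nx and 2.84 to 4.30 CPM in Sham_Nx. Of the others 2 of 6 stellate, 1 of 8 lymphocyte and 1 of 4 cholangiocyte markers rose. Of the erythroid markers 2 of 7 fell. Of the hepatocyte markers 1 of 8 fell, Serpina1c at -0.83 (edgeR BH-adjusted p = 0.00107). The part of these cells in the result was not tested.

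Muscle markers were lower in ORX_Nx, with 3 of 15 called. Without the 4 libraries highest in them, which leaves 2 Sham_Nx libraries, no member was called in ORX_Nx against Sham_Nx, but the log2 fold changes were as large or larger. They were -0.57 for mt-Nd2 (edgeR BH-adjusted p = 0.0516), -0.50 for mt-Nd5, -0.49 for mt-Nd6, -0.34 for Ndufaf4 and -0.32 for Cox6a1. Pancreatic acinar markers were below 0 in 15 of 15 cases, of which 0 were called, with sums of 4.23 to 7.29 CPM in ORX_Nx and 6.65 to 616 CPM in Sham_Nx livers. Without the 3 libraries highest in them the calls of mt-Nd5 (-0.40, edgeR BH-adjusted p = 0.0668), mt-Nd6 (-0.41, adjusted p = 0.0595) and Cox6a1 (-0.23, adjusted p = 0.117) ended. Leaving out Sham_Nx mouse 4 kept the call of mt-Nd2 alone. The authors' deposited table, which tests for any difference among groups, gave a q-value under 0.05 to 5 of 103 members, mt-Nd2, mt-Nd5, mt-Nd6, Ndufaf4 and Cox7a2, and to 4.03% of its 35982 genes. These are many more than the 16164 genes that passed the count filter here, so the 4.03% is not a like background for the members.

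**Figure D2:**
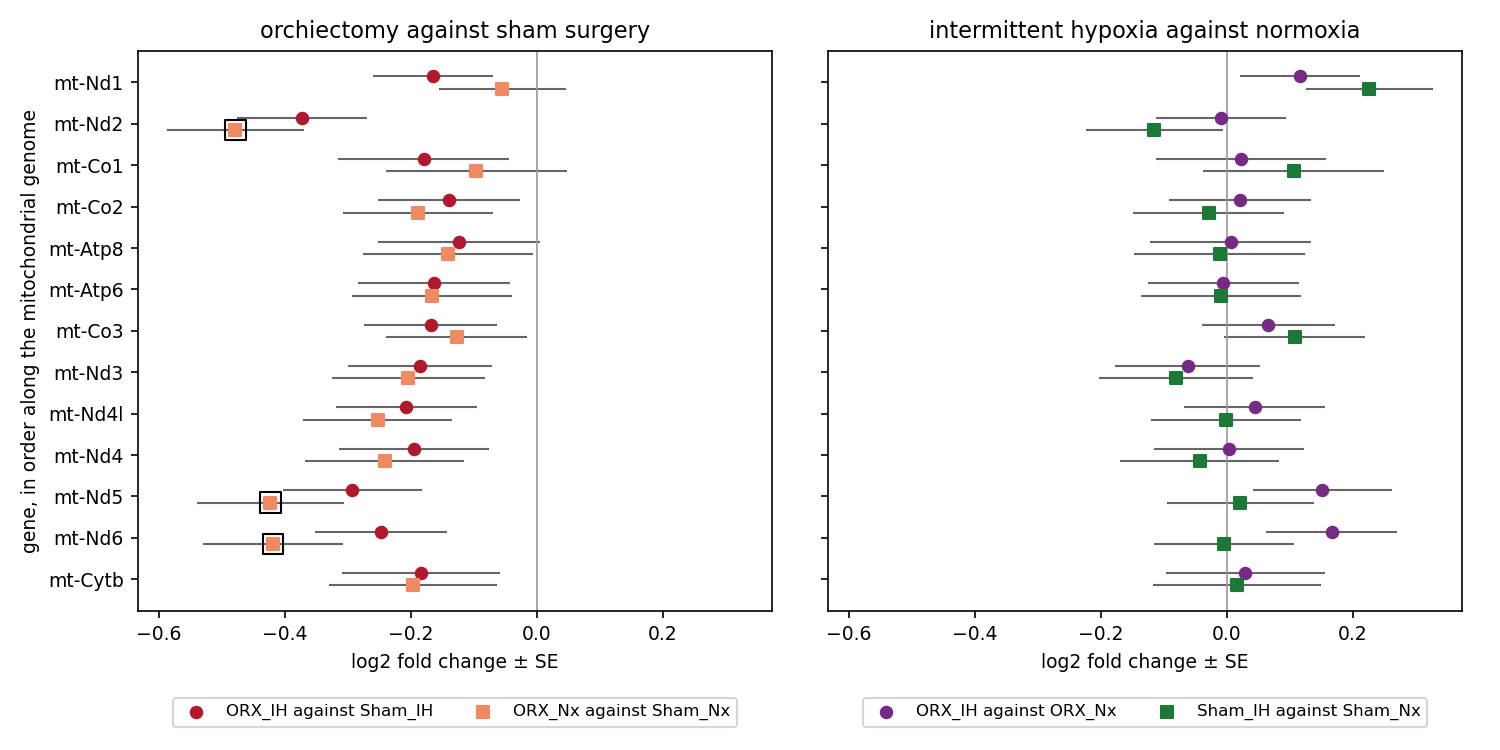
Log2 fold changes of the 13 mitochondria-encoded genes for orchiectomy (left panel) and intermittent hypoxia (right panel), in the order of the genes along the mitochondrial genome, with bars of ± 1 SE and an open square around values with an edgeR BH-adjusted p under 0.05. All 13 lie below 0 in both orchiectomy comparisons (11 and 12 of 13 without scaling factors), with mt-Nd2 lowest at -0.48 and -0.37, and they scatter around 0 under intermittent hypoxia.

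Under intermittent hypoxia the mitochondria-encoded genes were again all below 0 after orchiectomy, but none of the 13 passed the test. In ORX_IH against Sham_IH, 1 of 103 members was called, the muscle isoform Cox6a2, which is described with the other isoforms, while 2.88% of all genes were called and 1.31% were called higher. The median of the 13 was -0.18, against 0.01 for the nuclear-encoded members and -0.00 for all genes. Without scaling factors 12 of the 13 stayed below 0, with a median of -0.05 beside 0.13 for all genes, and 88 of 90 nuclear-encoded members were above 0 in place of 49. On that scale 12 members rose and 0 fell, beside 5.13% of all genes called higher. Kupffer cell markers were higher in 10 of 11 cases, of which 0 were called, with sums of 243 to 383 CPM in ORX_IH and 176 to 234 CPM in Sham_IH livers. Of 8 lymphocyte markers only Cd79a and Ms4a1 were called, and of 9 acute phase genes only Orm3, all of which rose. Of 7 erythroid markers tested only Alas2 was called, and it fell (log2 fold change -1.78). Of 8 hepatocyte markers only Serpina1c was called, and it fell (-0.73), while 3 of the 8 were above 0. Of all genes, 1.57% were called lower. The part of these cells in the result was not tested.

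The level of mt-Nd2 was 6219.5, 5771, 5634, 5568 and 6809 CPM in the ORX_IH libraries, against 8267, 7427, 7295, 7497 and 8366 CPM in the Sham_IH libraries. As in normoxia, every orchiectomized mouse lay below every sham-operated one on this TMM scale. On it the 10 orchiectomized mice of both atmospheres also lay below all 9 sham-operated mice, a separation that was not counted over all genes. The TMM factors were 0.974 to 1.17 in orchiectomized and 0.930 to 0.987 in sham libraries. As a share of raw counts ORX_IH mouse 5 lay above Sham_IH mouse 3, so that these groups overlapped. Of all genes, 3.07% were lower in every ORX_IH than in any Sham_IH library. The log2 fold change was -0.37 ± 0.10 (SE), and the edgeR BH-adjusted p of 0.0571 missed the threshold. Other tools called it, with an adjusted p of 0.0296 in limma-voom and 0.000487 in DESeq2, and the adjusted p ranged up to 0.335 over all alternatives, 6 of 34 of which called the gene. The next lowest log2 fold changes of the 13 were those of mt-Nd5 at -0.29 (adjusted p = 0.172) and mt-Nd6 at -0.25 (adjusted p = 0.226).

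Among the nuclear-encoded members of the same comparison, Cox7a2, the broadly expressed form of a complex IV subunit, had a log2 fold change of -0.19 (edgeR BH-adjusted p = 0.103). Its mean was 68.8 ± 5.73 CPM in ORX_IH and 78.6 ± 3.23 CPM in Sham_IH livers (SD, n = 5 each), and in normoxia its log2 fold change was also -0.19 (edgeR BH-adjusted p = 0.0551). Ndufa5, an accessory complex I subunit, was at 0.24 (edgeR BH-adjusted p = 0.0942). DESeq2 called 5 of 103 members, which were Cox6a2, Cox7a1, Ndufa5, mt-Nd2 and mt-Nd5, and 5.36% of all genes, so that its share of members was near its background.

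Intermittent hypoxia in sham-operated mice changed no member by the test. In Sham_IH against Sham_Nx the edgeR test, DESeq2 and limma-voom each called 0 of 103 members, where they called 0.303%, 2.56% and 0.291% of all genes in that order. At an unadjusted p under 0.05, 5 members were higher and 0 lower, against 13.1% of all genes in either direction and 6.62% higher. They were Atp5g1, which encodes the rotor ring subunit c of complex V, at 0.20, Ndufs1 at 0.18, Ndufs4 at 0.15 and Ndufc2 at 0.19, all of complex I, and mt-Nd1 at 0.23.

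The level of mt-Nd1 was 6445, 5949, 5739, 5736 and 6489 CPM in the Sham_IH libraries, against 4625, 5519, 5247 and 5368 CPM in the Sham_Nx libraries. The groups did not overlap. Its log2 fold change was 0.23 ± 0.10 (SE), with an approximate 95% interval of 0.03 to 0.42 and an edgeR BH-adjusted p of 0.336. The gene next to it, mt-Nd2, was at -0.11 ± 0.11 (edgeR BH-adjusted p = 0.719). The level of Atp5g1 was 133.1, 131.3, 131.4, 130.9 and 130.4 CPM in the Sham_IH libraries, against 105.2, 113.5, 123.7 and 114.2 CPM in the Sham_Nx libraries. These groups did not overlap either, and Atp5g1 had an edgeR BH-adjusted p of 0.196, or 0.0478 when only the compared groups were fitted, with a range of 0.0478 to 0.826 over the alternatives. The groups did not overlap for 4.31% of all genes in the higher direction.

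Intermittent hypoxia in orchiectomized mice left most nuclear-encoded members slightly higher, by amounts that did not pass the test. In ORX_IH against ORX_Nx 79 of 90 nuclear-encoded members had a log2 fold change above 0, and 77 to 80 of 90 did under the other scalings. Without ORX_Nx mice 4 and 5, however, 52 of 90 did, with a median of 0.01. The median over all libraries was 0.08, against 0.02 for the 13 mitochondria-encoded genes and -0.01 for all genes. By complex, the nuclear-encoded medians were 0.07 for complex I, 0.08 for complex II, 0.07 for complex III, 0.08 for complex IV and 0.10 for complex V. The edgeR test called 0 of 103 members and 0.0742% of all genes, limma-voom 0 members and 0.099% of all genes, and DESeq2 1 member and 4.4% of all genes. At an unadjusted p under 0.05, 16 members were higher and 0 lower, against 17.1% of all genes in either direction and 7.34% higher.

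Ndufaf4 was the member with the lowest p. Its level was 39.2, 40.7, 35.4, 39.7 and 38.9 CPM in the ORX_IH libraries, against 32.8, 32.5, 26.4, 29.4 and 35.2 CPM in the ORX_Nx libraries. The groups did not overlap, with 35.4 beside 35.2 CPM at the boundary. Its log2 fold change was 0.31 ± 0.08 (SE; edgeR BH-adjusted p = 0.0736), and DESeq2 gave an adjusted p of 0.0154, within a range of 0.0154 to 0.337 over the alternatives. Ndufa12, an accessory subunit of complex I, averaged 45.1 ± 1.19 CPM in ORX_IH and 40.0 ± 3.62 CPM in ORX_Nx livers (SD, n = 5 each) and also did not overlap, as was so for 1.18% of all genes in that direction. Its log2 fold change was 0.17 (edgeR BH-adjusted p = 0.154). The others at an unadjusted p under 0.05 included Ndufs1 at 0.17, Cox5a at 0.16 and Cox5b at 0.17 of complex IV, Sdhd at 0.17 of complex II, Uqcrb at 0.14 of complex III and Atp5g1 at 0.16. In this comparison the Kupffer cell markers had log2 fold changes below 0 in 11 of 11 cases, of which 0 were called, with sums of 243 to 383 CPM in ORX_IH and 266 to 1120.4 CPM in ORX_Nx livers. The highest of these sums were those of ORX_Nx mice 4 and 5.

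**Figure D3:**
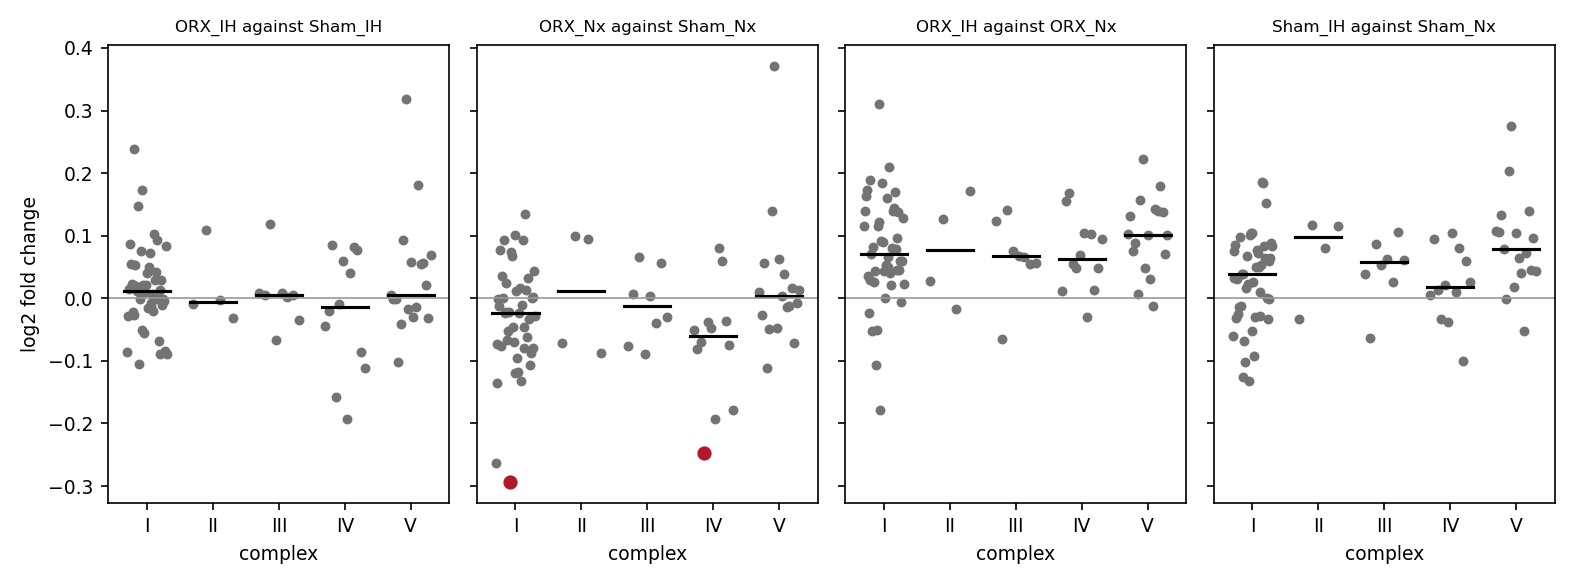
Log2 fold changes (y axis) of 86 nuclear-encoded members, without the tissue-restricted isoforms, by complex (x axis), with 1 point per gene, the complex median as a line and larger red points for genes called by edgeR. Complex I includes the 8 Ndufaf assembly factors. Every complex median lies above 0 in ORX_IH against ORX_Nx, and the red points are Ndufaf4 at -0.29 and Cox6a1 at -0.25 in ORX_Nx against Sham_Nx.

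With both treatments, 4 nuclear-encoded members rose and mt-Nd2 fell. In ORX_IH against Sham_Nx, 5 of 103 members were called, against 8.63% of all genes, of which 3.53% were higher and 5.1% lower. The 4 are Atp5g1, Ndufc2, Uqcrb and the muscle isoform Cox7a1. Without scaling factors 26 rose and 1 fell, beside 7.14% of all genes called higher and 2.21% called lower. This comparison shares its libraries with the others, so its values are not separate evidence.

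Atp5g1 had 129.99, 141.5, 138.01, 151.5 and 139.7 CPM in the ORX_IH libraries, against 105.2, 113.5, 123.7 and 114.2 CPM in the Sham_Nx libraries, with no overlap. It rose by 0.30 ± 0.07 on the log2 scale (SE; edgeR BH-adjusted p = 0.0122). The ORX_Nx libraries had 115.8, 149.7, 125.2, 121 and 117.1 CPM and overlapped both. Ndufc2, a membrane subunit of complex I, had 30.6, 32.5, 33.6, 38.1 and 34.03 CPM in the ORX_IH libraries, against 24.7, 30.2, 28.1 and 28.2 CPM in the Sham_Nx libraries. It rose by 0.28 ± 0.08 on the log2 scale (SE; edgeR BH-adjusted p = 0.0266), and its groups also stood apart.

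Uqcrb, a complex III subunit that takes part in ubiquinone binding, had 79.3, 83.5, 94.7, 90.1 and 87.4 CPM in the ORX_IH libraries, against 72.1, 75.7, 76.3 and 77.6 CPM in the Sham_Nx libraries. It rose by 0.21 ± 0.06 on the log2 scale (SE; edgeR BH-adjusted p = 0.0397) without overlap, and leaving out 1 library ended the call in 10 of 19 cases. For mt-Nd2 the ORX_IH and Sham_Nx values given above do not overlap, and it fell by 0.49 ± 0.11 (log2 ± SE; edgeR BH-adjusted p = 0.00850). Leaving out any single library kept this call. Of all genes, 5.69% were higher and 6.89% lower in every ORX_IH than in any Sham_Nx library. Without the 4 libraries highest in muscle markers no member was called in this comparison. The log2 fold changes there were -0.57 for mt-Nd2 (edgeR BH-adjusted p = 0.139), 0.26 for Atp5g1, 0.32 for Ndufc2 and 0.24 for Uqcrb. Without the 3 libraries highest in pancreatic markers mt-Nd2 alone was called, with Atp5g1 and Ndufc2 at 0.32 and Uqcrb at 0.25.

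The effect of orchiectomy on a member was not shown to depend on the atmosphere. The interaction of both treatments was called by edgeR for 0 of 103 members and for 0% of all genes, and 2 members had an unadjusted p under 0.05 against 6.34% of all genes. These were Ndufaf4, at a log2 difference of 0.24 ± 0.11 (edgeR BH-adjusted p = 0.778), and Cox6a2, at 9.33 ± 2.57 (edgeR BH-adjusted p = 0.416). For mt-Nd2 the difference between its effects was 0.11 ± 0.15 (edgeR BH-adjusted p = 0.928).

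Within the mitochondrial transcripts, the balance of the neighbours mt-Nd2 and mt-Nd1 differed among the groups. The ratio of their counts needs no scaling between libraries. It was 1.11 ± 0.0528 in ORX_IH (SD, n = 5), 1.21 ± 0.0953 in ORX_Nx (SD, n = 5), 1.28 ± 0.0218 in Sham_IH (SD, n = 5) and 1.62 ± 0.0863 in Sham_Nx livers (SD, n = 4). The ranges were 1.03 to 1.17 in ORX_IH, 1.08 to 1.32 in ORX_Nx, 1.248 to 1.307 in Sham_IH and 1.499 to 1.689 in Sham_Nx. Every Sham_Nx library therefore lay above every library of the treated groups, and ORX_IH lay below Sham_IH without overlap. The ratio was singled out after its values were seen, so no test was made.

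The levels of both genes lie behind this ratio, and those of mt-Nd2 are given above. The level of mt-Nd1 was 5613, 5252, 4829.6, 5419 and 5960.1 CPM in the ORX_IH libraries, and 5597, 5261, 4921, 4550.1 and 4651 CPM in the ORX_Nx libraries, both overlapping Sham_Nx. As a share of all mitochondria-encoded counts, mt-Nd2 made up 7.41% in ORX_IH, 7.64% in ORX_Nx, 8.33% in Sham_IH and 9.21% in Sham_Nx livers. For mt-Nd1 the shares were 6.68%, 6.33%, 6.51% and 5.69% in the same order of groups. Of the 78 ratios that the 13 genes can form, 5 set Sham_Nx apart from every other group, and 3 of these involve mt-Nd2. The number of ratios without overlap was 22 for ORX_Nx against Sham_Nx, 12 for Sham_IH against Sham_Nx, 3 for ORX_IH against Sham_IH and 0 for ORX_IH against ORX_Nx. The nearest pseudogene of mt-Nd2 held 0.000511% of their joint counts.

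**Figure D4:**
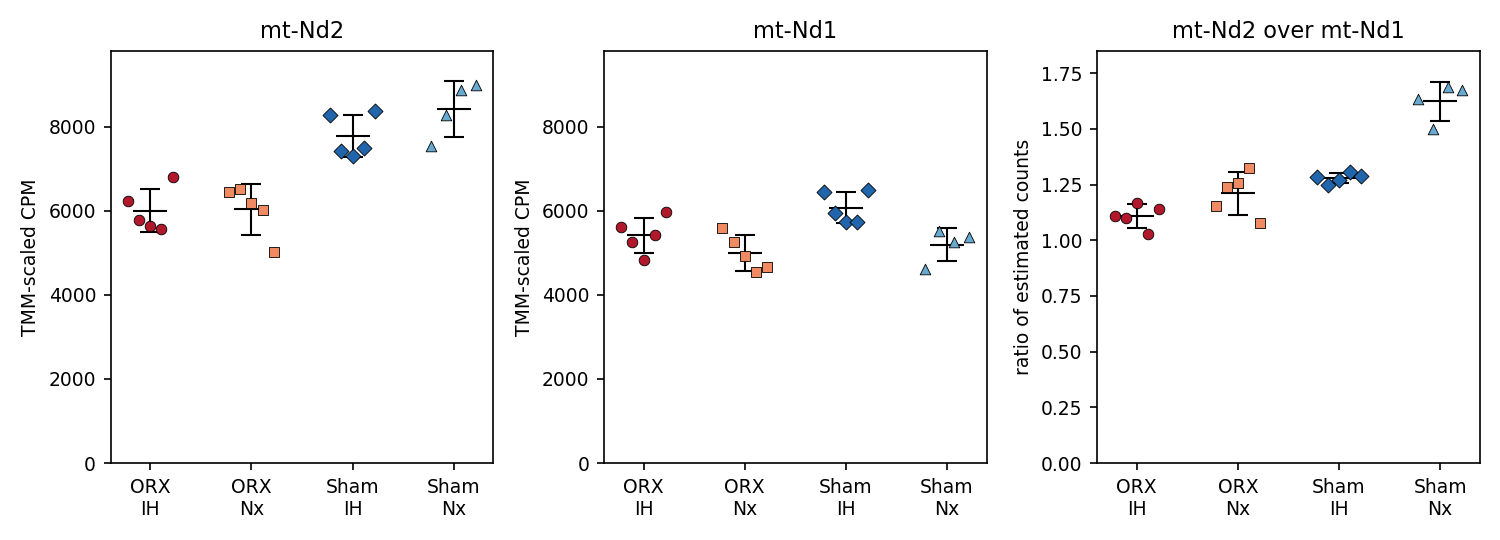
Levels of mt-Nd2 and mt-Nd1 (CPM) and the ratio of their counts, by group, with 1 point per library and the mean ± SD. On the TMM scale all 10 orchiectomized mice lie below all 9 sham-operated mice for mt-Nd2, which is not so for shares of raw counts. The ratio is 1.499 to 1.689 in Sham_Nx and 1.03 to 1.32 in the other groups.

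Several subunits exist as a broadly expressed form and a form typical of heart and skeletal muscle, and the liver forms dominated in all groups. Cox4i1 averaged 279 ± 17.7 CPM in ORX_IH, 277 ± 36.6 in ORX_Nx, 288 ± 13.8 in Sham_IH and 287 ± 12.9 in Sham_Nx livers, and its partner Cox4i2, known for its part in oxygen-sensing tissues, had 65 estimated counts in all libraries together and was no member. Cox8a averaged 121 CPM in ORX_IH, 117 in ORX_Nx, 128 in Sham_IH and 123 in Sham_Nx livers, and Cox8c was at 0 in every library. Cox6b1 averaged 148.8, 143.8, 149.7 and 147.6 CPM in that order, against 0.563, 0.514, 0.568 and 0.546 CPM for Cox6b2, the form known from testis. Ndufa4, a complex IV subunit, averaged 176, 165, 190.2 and 187 CPM, against 0.640, 0.699, 0.668 and 0.648 CPM for Ndufa4l2, a hypoxia-inducible relative. No change of Ndufa4l2 with intermittent hypoxia passed the test, with a log2 fold change of 0.06 ± 0.31 in Sham_IH against Sham_Nx and -0.12 ± 0.29 in ORX_IH against ORX_Nx.

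The subunit c of complex V is encoded by 3 genes whose mature proteins are the same. Atp5g3 averaged 255 CPM in ORX_IH, 247 in ORX_Nx, 258 in Sham_IH and 255 in Sham_Nx livers, and Atp5g2 averaged 4.46, 3.83, 3.59 and 2.95 CPM in the same order. Neither was called in any comparison. In ORX_IH against Sham_Nx, where Atp5g1 was called, Atp5g2 was at 0.59 ± 0.27 (log2 ± SE; edgeR BH-adjusted p = 0.193) and Atp5g3 at 0.00 ± 0.07, and the difference between the genes was not tested. Complex II, which has no mitochondria-encoded subunit, had no member called in any comparison. Its Sdha averaged 425, 416, 427 and 438 CPM and its Sdhb 134.6, 123.3, 124.8 and 115.1 CPM in ORX_IH, ORX_Nx, Sham_IH and Sham_Nx livers.

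All 3 muscle forms were highest in ORX_IH mice 1 and 2, the libraries with the highest muscle markers. Cox6a2, the heart and muscle form of the subunit Cox6a1, had 12.7, 5.80, 0.0551, 0.0301 and 0 CPM in the ORX_IH libraries, against 0.0359, 0.0558, 0, 0 and 0 CPM in the Sham_IH libraries. It was high in ORX_IH mice 1 and 2 alone, and the other 3 mice lay in the Sham_IH range. The fitted log2 fold change of 7.56 ± 1.98 (SE; edgeR BH-adjusted p = 0.0448) depends on the prior count and is no bound, since the Sham_IH libraries held 0 to 3 counts each. In normoxia Cox6a2 had 0.0335, 0.0187, 0.0688, 0.0156 and 0.642 CPM in the ORX_Nx libraries, against 1.44, 0.330, 0.0162 and 0.0519 CPM in the Sham_Nx libraries.

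Cox8b, another muscle form, had 5.23 and 2.04 CPM in ORX_IH mice 1 and 2 and 0.730 CPM in Sham_Nx mouse 2. Cox7a1, the muscle form of Cox7a2, had 3.13, 3.15, 0.716, 1.39 and 0.493 CPM in the ORX_IH libraries, against 0.973, 0.404, 0.404 and 0.502 CPM in the Sham_Nx libraries. It rose by 1.64 ± 0.48 on the log2 scale (SE; edgeR BH-adjusted p = 0.0378) with overlapping groups. Of the muscle markers, 10 of 15 were called higher in ORX_IH against Sham_IH, the comparison that called Cox6a2, beside 1.31% of all genes. In ORX_IH against Sham_Nx, the one that called Cox7a1, 0 of 15 were called higher, beside 3.53% of all genes. There Sham_Nx mice 2 and 3 also held muscle markers, with sums of 181 and 44.9 CPM. None of the markers was at 0. Their summed level was 2.34 to 1074 CPM in ORX_IH, 2.08 to 3.13 CPM in Sham_IH and 3.04 to 181 CPM in Sham_Nx livers. In ORX_Nx against Sham_Nx the markers had a median log2 fold change of -4.56 and Cox7a1 one of 0.81 (edgeR BH-adjusted p = 0.258), and Sham_Nx mouse 3, with a marker sum of 44.9 CPM, had 0.404 CPM of Cox7a1. Without the 4 libraries highest in muscle markers Cox6a2 had too few counts to be tested, and Cox7a1 was at 0.95 in ORX_IH against Sham_Nx (edgeR BH-adjusted p = 0.432). The part of muscle tissue in the calls of Cox6a2 and Cox7a1 was not tested.

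**Figure D5:**
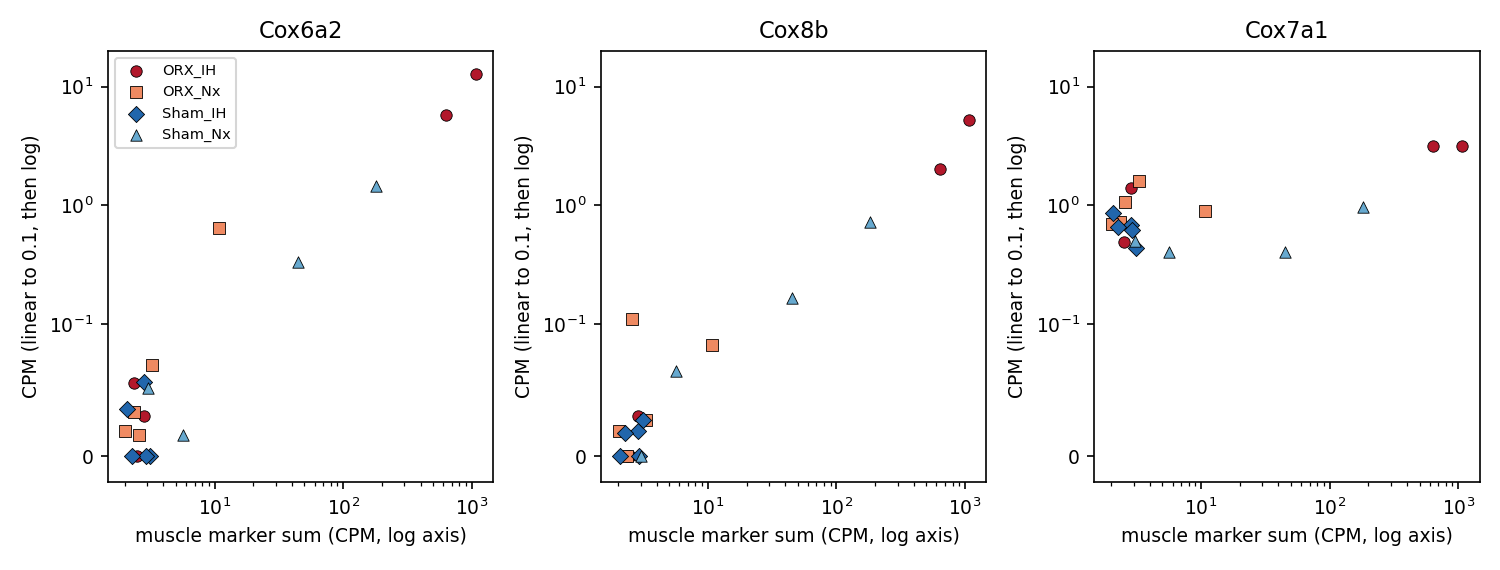
Levels of the muscle isoforms Cox6a2, Cox8b and Cox7a1 (CPM, y axis) against the summed level of 15 skeletal muscle markers (CPM, x axis), with 1 point per library, a log scale on the x axis and a y axis that is linear to 0.1 CPM and logarithmic above. The highest Cox6a2 values, 12.7 and 5.80 CPM, belong to the libraries with the highest marker sums, 1074 and 636 CPM.

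Each nuclear-encoded member has its own promoter, and the promoters were searched for motifs chosen with earlier results of these data known. No link between the motifs and any fold change was tested. RefSeq windows on GRCm38.p6 from 250 bases before to 50 bases after each start were found for 76 of the 91 nuclear-encoded members, as 81 windows, and were compared with all 32851 windows of the same length. Motifs were searched on both strands. GCATGCGC, a core of the site of the activator NRF1, was in 14.8% of the member windows and 2.71% of all windows. CCGGAAG, an ETS factor site of the kind that GABP binds, was in 23.5% and 8.86%, and AAGATGGC, a core of the YY1 site, was in 13.6% and 2.75%. AAGGTCA, a core of the estrogen-related receptor site, was in 9.88% and 4.72%, and TGACGTCA, the CREB site, in 4.94% and 1.79%. The ETS and YY1 motifs can overlap by AAG, and the median GC content was 58.7% in the member windows and 52.7% in all windows. A match is a description of the letters and not of binding.

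The windows of the nuclear-encoded members that fell in ORX_Nx against Sham_Nx are shown, with the matched motifs in capitals, joined where they overlap.
Cox6a1: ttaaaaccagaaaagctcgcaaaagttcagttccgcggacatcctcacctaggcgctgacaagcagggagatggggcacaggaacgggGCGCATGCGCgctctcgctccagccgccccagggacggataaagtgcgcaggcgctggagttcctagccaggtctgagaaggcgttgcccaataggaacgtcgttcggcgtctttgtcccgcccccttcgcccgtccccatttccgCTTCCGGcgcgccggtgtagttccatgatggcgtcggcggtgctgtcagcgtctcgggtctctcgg
Ndufaf4: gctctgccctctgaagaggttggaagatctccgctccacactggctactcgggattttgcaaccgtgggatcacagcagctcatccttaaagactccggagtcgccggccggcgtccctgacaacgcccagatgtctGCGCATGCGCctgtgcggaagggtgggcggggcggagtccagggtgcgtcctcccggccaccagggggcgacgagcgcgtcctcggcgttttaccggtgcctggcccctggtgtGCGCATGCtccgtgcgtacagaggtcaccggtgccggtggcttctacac
The first lies at chr5:115348909-115349208 on the minus strand and the second at chr4:24897833-24898132 on the plus strand, both written 5′ to 3′ in the direction of the gene. Cox6a1 holds the NRF1 motif at 1 place and the ETS motif at 1 place, and Ndufaf4 holds the NRF1 motif at 2 places.

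A list of 32 genes holds those that copy, read and process mitochondrial DNA and RNA and, with them, nuclear regulators of mitochondrial biogenesis. In ORX_Nx against Sham_Nx 5 of the 32 fell and 1 rose, with a median of -0.14, where 14.3% of all genes were called and 6.46% fell. Polrmt, the mitochondrial RNA polymerase, averaged 23.7 ± 1.13 CPM in ORX_Nx (SD, n = 5) and 28.1 ± 1.62 CPM in Sham_Nx livers (SD, n = 4) and fell by 0.25 ± 0.07 (log2 ± SE; edgeR BH-adjusted p = 0.0209). Hsd17b10, a dehydrogenase that is also a subunit of the enzyme that cuts mitochondrial tRNAs from their precursors, averaged 89.5 ± 13.4 CPM in ORX_Nx and 162 ± 47.6 CPM in Sham_Nx livers and fell by 0.86 ± 0.17 (edgeR BH-adjusted p = 0.00352). The others that fell were Elac2, another tRNA-cutting enzyme, by 0.21, Tfb1m, an rRNA methyltransferase, by 0.41, and Gabpb1, a subunit of GABP, by 0.38. Ppargc1a, a coactivator of mitochondrial biogenesis, averaged 9.88 ± 1.71 CPM in ORX_Nx and 5.57 ± 1.62 CPM in Sham_Nx livers and rose by 0.82 ± 0.17 (edgeR BH-adjusted p = 0.00544). In ORX_IH against Sham_Nx 3 of the 32 were called, beside 8.63% of all genes. Polrmt fell by 0.23, Elac2 fell by 0.29 and Ppargc1a rose by 0.66. None of the 32 was called in ORX_IH against Sham_IH, in Sham_IH against Sham_Nx or in ORX_IH against ORX_Nx.

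Of 45 assembly factors outside the rule, 7 fell and 0 rose in ORX_Nx against Sham_Nx, where 6.46% of all genes fell and 7.88% rose. In ORX_IH against Sham_Nx 3 fell and 1, Sdhaf1, rose, where 5.1% of all genes fell and 3.53% rose. Cox19, a copper-linked assembly factor of complex IV, averaged 20.4 ± 2.99 CPM in ORX_IH, 23.3 ± 2.33 in ORX_Nx, 25.99 ± 2.18 in Sham_IH (SD, n = 5 each) and 36.4 ± 2.75 CPM in Sham_Nx livers (SD, n = 4). It fell by 0.64 ± 0.10 in ORX_Nx (edgeR BH-adjusted p = 0.000420), by 0.49 ± 0.10 in Sham_IH (edgeR BH-adjusted p = 0.0386) and by 0.83 ± 0.10 in ORX_IH (edgeR BH-adjusted p = 4.23e-05), each against Sham_Nx. A list of 15 genes holds electron carriers, genes of ubiquinone synthesis, Dhodh and Cyc1, a complex III subunit that the symbol rule leaves out. Of these, Pdss2, which makes the side chain of ubiquinone, fell by 0.35 ± 0.08 in ORX_Nx against Sham_Nx (edgeR BH-adjusted p = 0.00987). It also fell by 0.38 ± 0.08 in ORX_IH against Sham_IH (edgeR BH-adjusted p = 0.0114), where 1.57% of all genes were called lower. Coq3, a methyltransferase of the same pathway, fell by 0.35 ± 0.09 in normoxia (edgeR BH-adjusted p = 0.0171). Of 78 mitochondrial ribosomal protein genes 8 fell and 0 rose in ORX_Nx against Sham_Nx, with a median of -0.11, where 6.46% of all genes fell, and 0 were called in ORX_IH against Sham_IH. Of 22 other membrane and matrix genes of mitochondria none was called in ORX_Nx against Sham_Nx. In ORX_IH against Sham_IH 1, Slc25a4, rose, where 1.31% of all genes were called higher. It spread widely, from 3.48 to 48.2 CPM in ORX_IH livers against 2.84 to 3.57 CPM in Sham_IH livers. Muscle markers also rose in that comparison, and their part in the rise of Slc25a4 was not tested.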

How the data were processed

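Liver RNA of 19 mice in 4 groups was analysed, with groups and mouse numbers taken from the sample titles. Per the labels' protocols, messenger RNA was poly(A)-selected and strand was kept in the NEBNext libraries. Per the submitters' processing notes, reads were handled with bcl2fastq 2.20 and fastp 0.23.2 and quantified with kallisto 0.46.1, and the build was GRCm39. The authors deposited estimated counts per gene, which were rounded to whole numbers, since 27.5% of these expected counts were not whole. They also deposited a table of log2 expression with an F-statistic score, a p-value and a q-value per gene, used as an alternative. The deposited effective length of each gene gave levels per kilobase.

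The filterByExpr function of edgeR, at a minimum count of 10, passed 16164 genes. Scaling was by trimmed mean of M-values (TMM), and all 4 groups were fitted together by edgeR 4.0.16 in R 4.3.3 with its quasi-likelihood F-test. P-values were adjusted by the BH method over all genes, and intervals are approximate, from the standard error and the normal quantile at the 95% level. CPM values are TMM-scaled with no batch term. DESeq2 1.42.0, limma 3.58.1, other scalings, filters, a replicate block and subsets of libraries were alternatives, and steps were tested on simulated data. Members, gene lists and tests were chosen with earlier results of these data known. Genes named were all mitochondria-encoded members, every member called, the highest of each complex per length and the paralogous isoforms. Of these isoforms Cox7a2l, Cox7b and Cox7b2 were planned but are not described. Further genes with low p-values were named after their values were seen. Library totals were 29.3 to 69.6 M estimated counts. Intervals are of the log2 fold change between groups and rest on the spread between these mice. Copies were searched by shared stretches of 31 bases in GENCODE M21 transcripts, and 24 of the 104 members had a copy with 50% or more of its stretches shared. Promoter windows and transcripts are on GRCm38, an older build than the authors used, and served for sequences alone. Replicate numbers were not treated as pairs.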

Additional observations from a re-analysis of the deposited data

Results flagged for a closer look

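In groups of 4 or 5 libraries, 188 sets of values were searched for a library far from the others, and 4 were found, where chance gives about 1 in 20. Atp5g1 was 149.7 CPM in ORX_Nx mouse 2, with the other ORX_Nx libraries at 116 to 125 CPM. Cox6a2 was 0.6423 CPM in ORX_Nx mouse 5, with the others at 0.0156 to 0.0688 CPM, and that library also had the highest sum of muscle markers in its group, 10.8 CPM. Cox6b1 was 138.3 CPM in ORX_IH mouse 1, with the others at 150.1 to 153.99 CPM. The nuclear-encoded complex III genes held 0.1236% of the counts in ORX_IH mouse 3, with the others at 0.108 to 0.113%.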

How the results depend on the processing

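No direction that was called reversed under any alternative. The count of members called in ORX_Nx against Sham_Nx (5) was 16 without scaling factors (13 rose and 3 fell), 3 with upper-quartile scaling, and 2 when only the compared groups were fitted, when only libraries numbered 1 to 16 in the deposited column names were used, without the 3 libraries highest in pancreatic markers and without ORX_Nx mice 4 and 5. With the 4 libraries highest in muscle markers left out it was 0. In ORX_IH against Sham_IH (1) it was 12 without scaling factors (all of which rose), 5 with DESeq2, 4 without ORX_Nx mice 4 and 5, and 0 with limma-trend on the deposited log2 values, with only the compared groups, without the muscle-high libraries and without the pancreas-high libraries. In ORX_IH against Sham_Nx (5) it was 27 without scaling factors (26 rose and 1 fell), 9 with upper-quartile scaling, 3 with limma-trend, 1 with libraries 1 to 16 or without the pancreas-high libraries and 0 without the muscle-high libraries. DESeq2 called 1 member in ORX_IH against ORX_Nx, and 1 was called in Sham_IH against Sham_Nx with only the compared groups. Fewer libraries, and so fewer degrees of freedom, enter the subsets, and the cause of the other changes was not tested.

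Without scaling factors the median of all genes moved to 0.14 in ORX_Nx against Sham_Nx, 0.13 in ORX_IH against Sham_IH and 0.13 in ORX_IH against Sham_Nx, on which scale the nuclear-encoded medians were 0.0993, 0.137 and 0.159 and turned above 0 in the first. The mitochondria-encoded medians were then -0.0743 in ORX_Nx against Sham_Nx and -0.0531 in ORX_IH against Sham_IH. Without ORX_Nx mice 4 and 5 the mitochondria-encoded median was -0.0734 in ORX_Nx against Sham_Nx, and without the muscle-high libraries it was -0.334 in ORX_IH against Sham_Nx.

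Leaving out 1 library at a time gave 1 to 9 members called in ORX_Nx against Sham_Nx, 0 to 3 in ORX_IH against Sham_IH, 0 to 2 in ORX_IH against ORX_Nx, 2 to 6 in ORX_IH against Sham_Nx and 0 in the others. In ORX_Nx against Sham_Nx it was 9 without ORX_Nx mouse 2, 3 without ORX_Nx mouse 3 or 4 or Sham_Nx mouse 5, and 1 without Sham_Nx mouse 4. In ORX_IH against Sham_Nx it was 2 or 3 without ORX_IH mouse 2 or 4 or any Sham_Nx mouse. In ORX_IH against Sham_IH it was 3 without ORX_IH mouse 5 and 2 without ORX_IH mouse 3 or ORX_Nx mouse 4 or 5, and in ORX_IH against ORX_Nx it was 2 without ORX_Nx mouse 2 and 1 without ORX_Nx mouse 5. The call of mt-Nd2 held in all 19 cases in normoxia, with adjusted p of 0.00711 to 0.0330. Calls ended for mt-Nd5 without Sham_Nx mouse 4 (adjusted p = 0.0711) or 5 (0.0546), for mt-Nd6 without Sham_Nx mouse 4 (0.0637), for Ndufaf4 without ORX_Nx mouse 3 (0.0535) or 4 (0.0545) or Sham_Nx mouse 4 (0.108), and for Cox6a1 in 13 of 19 cases, those without ORX_IH mouse 2 or 5, ORX_Nx mouse 1, 3, 4 or 5, Sham_IH mouse 1, 2, 3 or 5, or Sham_Nx mouse 2, 4 or 5 (up to 0.140). That of Cox6a2 ended in 12 of 19 cases, those without ORX_IH mouse 1 or 2, ORX_Nx mouse 1, 2 or 3, any Sham_IH mouse, or Sham_Nx mouse 3 or 5 (up to 0.135), that of Uqcrb in 10, those without ORX_IH mouse 2, 3, 4 or 5, Sham_IH mouse 1 or 5, or any Sham_Nx mouse (up to 0.123), that of Ndufc2 without ORX_IH mouse 4 or Sham_Nx mouse 2, 4 or 5 (up to 0.102), that of Atp5g1 without Sham_Nx mouse 2 (0.0550) and that of Cox7a1 without ORX_IH mouse 1 or 2 or Sham_Nx mouse 3, 4 or 5 (up to 0.105).

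The labels number mice within groups, and the numbers were not taken as pairs, since 5 of 27 same-number pairs had a correlation over 0.1, over a range of -0.197 to 0.395 and with a median of 0.00369 against 0.00522 for other pairs. Of the 19 libraries 8 correlated best with one of their own number, and no chance level was worked out for this count. Mouse 5 of every group had a library number from 17 to 20. The other numbers ran in blocks by group, 1 to 4 in ORX_Nx, 5 to 8 in ORX_IH, 10 to 12 in Sham_Nx and 13 to 16 in Sham_IH. Library number and group therefore cannot be told apart in those libraries. With the replicate block 0 members were called in ORX_IH against Sham_IH and 3 in ORX_IH against Sham_Nx, and the call of Cox6a1 in ORX_Nx against Sham_Nx ended (adjusted p = 0.0848). Adding the counts of near-identical pseudogenes, an alternative chosen after seeing the data, changed no count of calls. Depth limits the muscle isoforms, where 3 counts correspond to 0.0431 to 0.102 CPM.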
